A study of Homo sapiens with 4 samples.

Results

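HCC1143 cells kept in the solvent DMSO for 72 h were compared with HCC1143 cells kept in DMSO for 24 h, so that the only labelled difference was time in culture. HCC1143 is an established human line that came from a breast carcinoma of triple-negative type, that is, a tumour with little or no oestrogen receptor, progesterone receptor or HER2. Members were all cell barcodes of the 2 DMSO libraries with under 20% of their unique molecular identifiers (UMIs, each a single captured RNA molecule) from mitochondrially encoded MT- genes. This rule kept 1101 of 1102 barcodes at 24 h and 783 of 788 at 72 h, or 1884 of the 3180 cells kept in the series. The other cells came from 2 libraries of the same line in 1 nM paclitaxel, a microtubule-stabilising taxane, for 24 h or 72 h. In all 4 groups the cells were seeded in multi-well plates and attached for 24 h before DMSO or drug was added, in RPMI1640 medium with fetal bovine serum. Cell density, medium changes and the number of divisions were not recorded in the labels.

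A growing monolayer of carcinoma cells passes with time from sparse, dividing cells to crowded cells that share a used medium. Growing cells invest in ribosomes. The mRNAs of ribosomal proteins and of many translation factors begin with a run of pyrimidines, the terminal oligopyrimidine or TOP element, through which their translation and stability follow nutrient and growth signals. Dividing cells also carry mRNAs for DNA replication and mitosis that are largely missing from cells at rest. In breast epithelium, luminal cells face the duct lumen and make secretory and mucin genes, while basal cells contact the matrix and make contractile and basal keratin genes. Lines such as HCC1143 carry parts of both programmes.

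Each group was 1 library, so no difference has a replicate check, no p-value was computed, and time, culture and library cannot be told apart. The kept cells summed to 72024235 UMIs at 24 h and 49228982 at 72 h, with medians of 59378 and 54864 UMIs and of 7433 and 6902 genes per cell. MT- genes took a median of 7.78% and 6.92% of a cell's UMIs. The 2 libraries shared 3 barcode sequences. All 6 epithelial markers examined (EPCAM, KRT8, KRT18, KRT19, KRT7, CDH1) were present and summed to 2057 counts per 1000000 UMIs (CPM) at 24 h and 2068 at 72 h. ESR1 was at 0.472 and 0.427 CPM, ERBB2 at 20.6 and 23.5 CPM, and PGR was not listed in either table. Of 8 immune markers, 2 and 3 were listed, summing to 7.41 and 8.92 CPM, and PTPRC, CD3D, CD3E, CD79A and MS4A1 were in neither table. Fibroblast markers summed to 12.1 and 11.5 CPM with 2 of 7 listed. Endothelial markers summed to 2.25 and 10.8 CPM with 2 of 4 listed, nearly all of it KDR, while PECAM1 and CDH5 were not listed.

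Gene levels were compared as CPM of the UMIs summed over a library. The median log2 ratio over the 2470 genes that averaged 50 CPM or more was -0.41, so most genes had a lower CPM at 72 h, where ribosomal protein mRNAs took a larger share. Ratios are therefore given relative to that median, as relative log2 ratios of 72 h over 24 h. A relative value under 0.41 lies below 0 on the plain CPM scale. A gene was counted as higher or lower when its relative ratio was at least 1.5-fold and its 95% counting interval excluded 0. All intervals here cover counting error only. For gene lists, tested members are those that averaged 50 CPM or more. List medians instead cover all members of at least 10 CPM, a level at which the median over all genes was 0.13. Under this rule 399 genes were higher (16.2% of the 2470) and 231 were lower (9.35%). On the plain CPM scale the split was 171 higher (6.92%) and 876 lower (35.5%), so 63.3% of calls were higher on the relative scale and 16.3% on the plain one. At 2-fold or more, 168 genes were higher (6.8%) and 22 were lower (0.891%), and past 3-fold there were 33 higher genes and 0 lower.

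**Figure D1:**
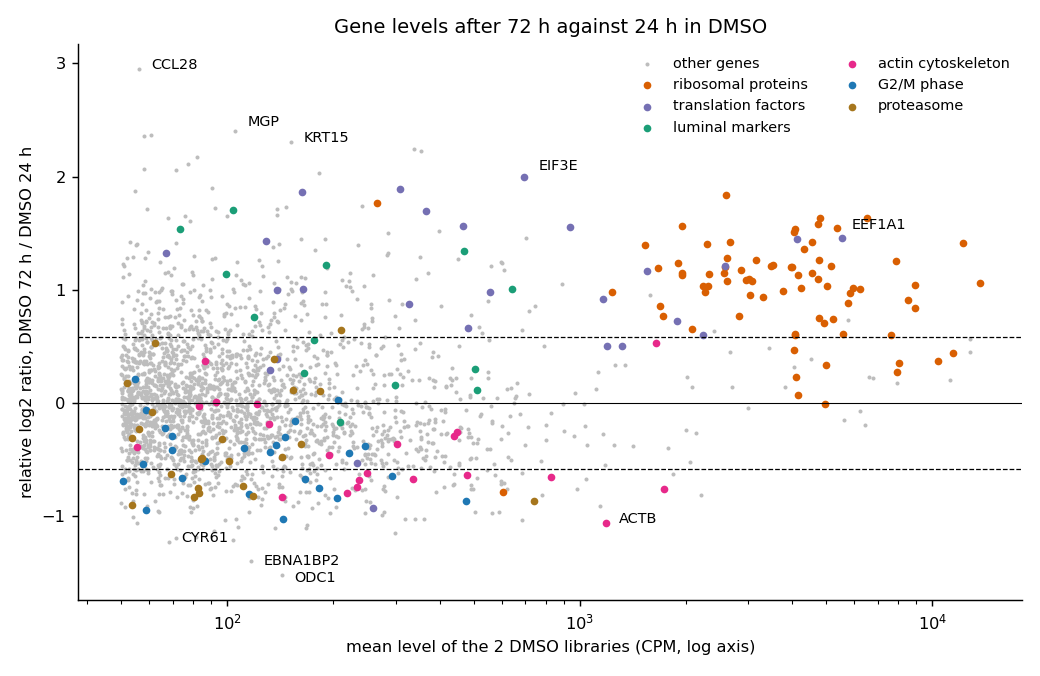
Each point is 1 of the 2470 genes that averaged 50 CPM or more, with its mean level on a log axis against its relative log2 ratio of DMSO 72 h over DMSO 24 h; dashed lines mark 1.5-fold. Ribosomal protein genes (orange) form a band at the right around a median of 1.08, while actin cytoskeleton genes (pink), G2/M genes (blue) and proteasome genes (brown) lie mostly below 0.

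Ribosomal protein mRNAs made up the largest shift by mass. Together the 77 cytosolic ribosomal protein genes took 276591 CPM at 24 h and 403238 CPM at 72 h. Of the 77, 67 were counted as higher and 1 as lower, with a median relative log2 ratio of 1.08 against 0.13 over all 8077 genes with at least 10 CPM. The 46 genes of the large subunit (42 higher, 0 lower, median 1.11) and the 31 of the small subunit (25 higher, 1 lower, median 1.06) had similar medians. RPL10A stood at 1409 CPM at 24 h and 3795 CPM at 72 h, RPL3 at 2880 and 6717 CPM, and RPL13A at 3931 and 9151 CPM. Their relative log2 ratios were 1.84, 1.63 and 1.63. Not every ribosomal protein mRNA moved with the group. RPLP0, a protein of the ribosomal stalk, was at 4348 and 3831 CPM (relative log2 ratio 0.23), RPS2 at 8288 and 7550 CPM (0.28) and RPSA at 5687 and 4250 CPM (-0.01). RPS26, which sits near the mRNA exit channel, was the 1 ribosomal protein gene counted as lower, at 843 and 368 CPM (-0.78). Ribosomal protein genes have many processed pseudogenes of near-identical sequence, so the level of a single gene depends on how such reads were assigned.

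Cell by cell, the median share of UMIs from ribosomal protein genes was 26.9% at 24 h (10th to 90th percentile 21.6 to 34.9%) and 40.5% at 72 h (31.5 to 47.0%). At 72 h, 639 of 783 cells (81.6%) lay above the 90th percentile of the 24 h cells and 5 cells (0.639%) lay below its 10th. The shift thus ran through most of the culture rather than through a small group of cells. The plot of ribosomal protein share by cell shows both distributions. The medians of the paclitaxel libraries lie between them, but 25.4% of the paclitaxel 72 h cells were below the 10th percentile of the DMSO 24 h cells.

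**Figure D2:**
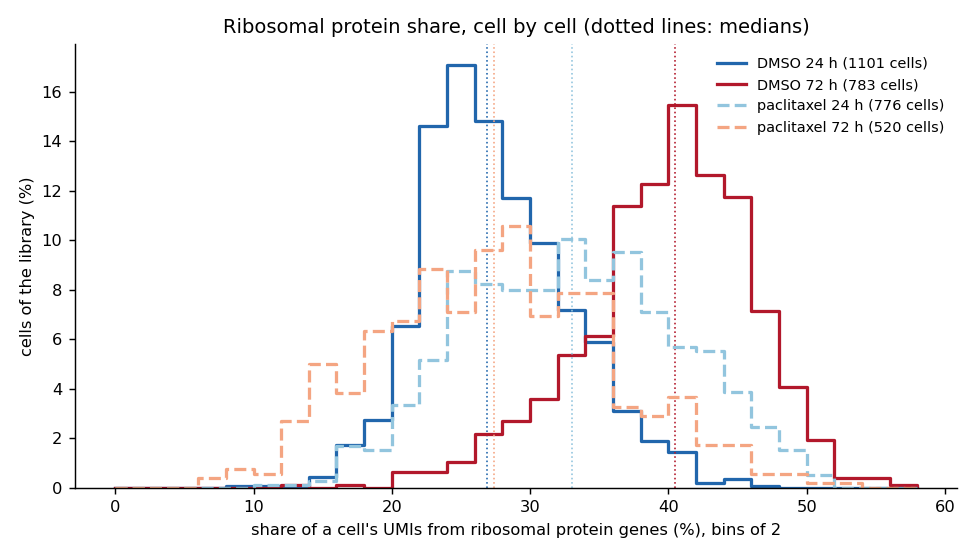
Histograms of the share of each cell's UMIs from ribosomal protein genes (x axis, percent, bins of 2 percentage points) as a percentage of the library's cells (y axis), with dotted lines at the medians. The DMSO 72 h cells (solid red, median 40.5%) lie to the right of the DMSO 24 h cells (solid blue, median 26.9%), and the medians of the paclitaxel libraries are 33.0% at 24 h and 27.4% at 72 h.

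Translation factors were higher alongside the ribosomal proteins. Of 26 tested members of this list, 20 were higher and 1 was lower, and the list's median was 1.02. The eIF3 complex holds the small subunit ready for initiation. Its subunit EIF3E was at 348 CPM at 24 h and 1044 CPM at 72 h (relative log2 ratio 1.995), EIF3L at 163 and 454 CPM (1.89) and EIF3F at 213 and 518 CPM (1.69). EIF4B, which assists the eIF4A helicase, was at 86.9 and 238 CPM (1.87). The elongation factors EEF1A1, which delivers aminoacyl-tRNA, and EEF2, which drives translocation, were at 3620 and 7480 CPM (1.46) and at 585 and 1290 CPM (1.55). GNB2L1 (RACK1), a scaffold protein of the small subunit, was at 2698 and 5540 CPM (1.45), and TPT1, the translationally controlled tumour protein, had a ratio of 1.21. The exception was EIF5A, the hypusine-carrying factor that relieves stalled ribosomes, at 371 and 147 CPM (-0.92). Among 5 tested host genes of small nucleolar RNAs, which guide rRNA modification, 4 were higher, with ZFAS1 at 432 and 768 CPM (1.24), SNHG7 at 142 and 243 CPM (1.19) and SNHG19 at 69.1 and 111 CPM (1.10).

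As a list, genes that build ribosomes did not follow those that make up ribosomes, and single genes were divided. Of 12 tested nucleolar and biogenesis genes, 3 were higher (25%) and 4 lower (33.3%), against 16.2% and 9.35% of all tested genes. The median over 20 members was -0.55. NOP56, a core protein of box C/D ribonucleoproteins, was at 292 CPM at 24 h and 116 CPM at 72 h (-0.92), and NHP2, of the box H/ACA complex, at 1417 and 671 CPM (-0.67). EBNA1BP2 and GPATCH4, both nucleolar proteins, were at 181 and 51.9 CPM (-1.39) and at 122 and 40.6 CPM (-1.18). The nucleolar chaperone NPM1 went the other way, at 451 and 764 CPM (1.17), as did FBL, the rRNA 2'-O-methyltransferase fibrillarin, at 229 and 273 CPM (0.66). GLTSCR2 (NOP53), a protein of large-subunit assembly, was also higher, with a ratio of 2.24. ODC1, the first enzyme of polyamine synthesis, had the lowest ratio of all tested genes, at 226 and 59.4 CPM (-1.51, counting interval -1.57 to -1.46). MYC, the transcription factor that is known to drive many of these genes, was at 107 and 123 CPM (0.61, 0.20 on the plain scale). Mitochondrial ribosomal protein genes also differed from the cytosolic ones. Of 42 tested, 0 were higher and 10 were lower, the median was -0.31, and their summed share was 8285 CPM at 24 h and 4832 CPM at 72 h. In 87.6% of the 72 h cells the share of mitochondrial ribosomal protein UMIs lay below the 10th percentile of the 24 h cells. Such shares are on the plain scale, where most lists were lower: for nuclear oxidative phosphorylation genes, with a median of -0.10, the figure was 79.1%, and for HNRNP and SRSF splicing factors (-0.05) 48.8%.

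The sequences at the annotated starts of these genes were read from RefSeq promoter entries (GRCh38.p14), to see which of the genes carry a pyrimidine run at the start. The lines show 15 bases before and 15 bases from the annotated start on the gene's own strand, with capitals for a run that begins with C at the start and goes on with at least 5 letters that are each C or T. The first 9 lines are from genes that were higher and the last 4 from genes that were lower.
EEF1A1, chr6:73521018-73521047, minus strand: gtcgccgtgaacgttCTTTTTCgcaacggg
EEF2, chr19:3985449-3985478, minus strand: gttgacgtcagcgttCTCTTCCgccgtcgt
EIF3F, chr11:7987322-7987351, plus strand: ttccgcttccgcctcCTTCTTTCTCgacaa
GNB2L1 (RACK1), chr5:181243892-181243921, minus strand: ggggggcttttctctCTCTCTTTCactgca
GLTSCR2 (NOP53), chr19:47745531-47745560, plus strand: gccagtggctgagttCTTCCTTTgacaaga
TPT1, chr13:45341169-45341198, minus strand: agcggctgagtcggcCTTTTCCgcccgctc
RPL10A, chr6:35468386-35468415, plus strand: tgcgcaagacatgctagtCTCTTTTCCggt
RPL3, chr22:39319609-39319638, minus strand: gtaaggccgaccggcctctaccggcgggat
EIF4B, chr12:53006441-53006470, plus strand: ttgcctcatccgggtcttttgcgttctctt
EBNA1BP2, chr1:43172556-43172585, minus strand: gtccctcccctttccCCTCCCCCggggtcc
ODC1, chr2:10448313-10448342, minus strand: gtgccgtggggctttgtcagtccctcctgt
NME1, chr17:51153544-51153573, plus strand: cggcagcggatctgcgcagaagcgttccgt
MYBL2, chr20:43667099-43667128, plus strand: acccgcgccggcggcgactgcagttcctgc
Among the higher genes shown, RPL3 and EIF4B had no such run, and that of RPL10A began 3 bases after the annotated start. Both RPL3 and EIF4B began with C and a pyrimidine run too short for the rule used here. Among the lower genes shown, EBNA1BP2 had a run at this start, 1 of its 2 annotated starts, and ODC1, NME1 and MYBL2 had none.

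A RefSeq start was found for 2006 of the 2458 tested genes without the MT- genes (81.6%). Over all 27305 genes with a RefSeq start, 3.83% had a pyrimidine run at a start. Among ribosomal protein genes 45 of 62 matched genes had one (72.6%), and among the translation factor and snoRNA host lists 14 of 22 (63.6%). Within the ribosomal protein genes the median relative log2 ratio was 1.06 for the 45 with a run, 38 of them higher (84.4%), and 1.15 for the 17 without, 16 of them higher (94.1%). Within the translation factor and snoRNA host lists the medians were 1.19 with a run and 0.74 without, over 14 and 8 genes. Outside these lists, a run was present in 38 of 240 genes counted as higher (15.8%), in 3 of 188 counted as lower (1.60%) and in 89 of 1494 with neither call (5.96%). Of the 79 that were higher by at least 2-fold, 24 had one (30.4%). With the run allowed to begin within 5 bases of the start, the shares were 32.1%, 7.45% and 17.4% for the higher, lower and remaining genes. Genes with a single annotated start gave 15.1% of 159 higher, 0.719% of 139 lower and 5.08% of 1044 remaining genes. These are matches to annotated starts, since the start that the cells used was not measured. Median transcript length, taken as the longest annotated transcript, was 2836 bases for higher genes outside the ribosomal proteins, 2219 for lower genes and 3072 for the rest, with median GC contents of 50.2, 50.3 and 48.0%.

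The genes with the highest ratios apart from ribosomal protein genes had varied roles. CCL28, a chemokine made by mucosal and mammary epithelium (chr5:43376645-43412391), was at 16.5 CPM at 24 h and 95.8 CPM at 72 h, a relative log2 ratio of 2.95 (counting interval 2.85 to 3.04) or 7.71-fold. MGP, the matrix Gla protein that binds calcium (chr12:14881181-14885926), was at 42.2 and 168 CPM (2.40). GABRP, a GABA receptor subunit found in basal-like breast tumours (chr5:170763350-170814047), was at 23.8 and 91.9 CPM (2.36). The keratin gene KRT15 (chr17:41513743-41522529) was at 64.3 and 239 CPM (2.30). NDRG1, known to be induced by hypoxia and by growth arrest, was at 24.9 and 96.9 CPM (2.37), and ASS1, which makes argininosuccinate on the way to arginine (chr9:130444929-130501274), at 89.1 and 274 CPM (2.03). GLTSCR2 (NOP53), a protein of large-subunit assembly, was at 149 and 530 CPM (2.24), IGBP1 at 37.4 and 127 CPM (2.17) and QARS, the glutaminyl-tRNA synthetase, at 47.4 and 133 CPM (1.90). TXNIP, an arrestin-family protein that restrains glucose uptake and is used as a sign of growth arrest, had a ratio of 3.03, from 13.2 to 81.2 CPM, but with a mean under 50 CPM it was not among the genes counted. ZNF90 (2.23) and NACA2 (2.06) are known to resemble abundant or multicopy genes in sequence, so their counts are uncertain. How their reads were assigned was not tested. The remaining genes among the 15 highest were HIST3H2A, ZNF581, EIF3E and EIF3L.

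**Figure D3:**
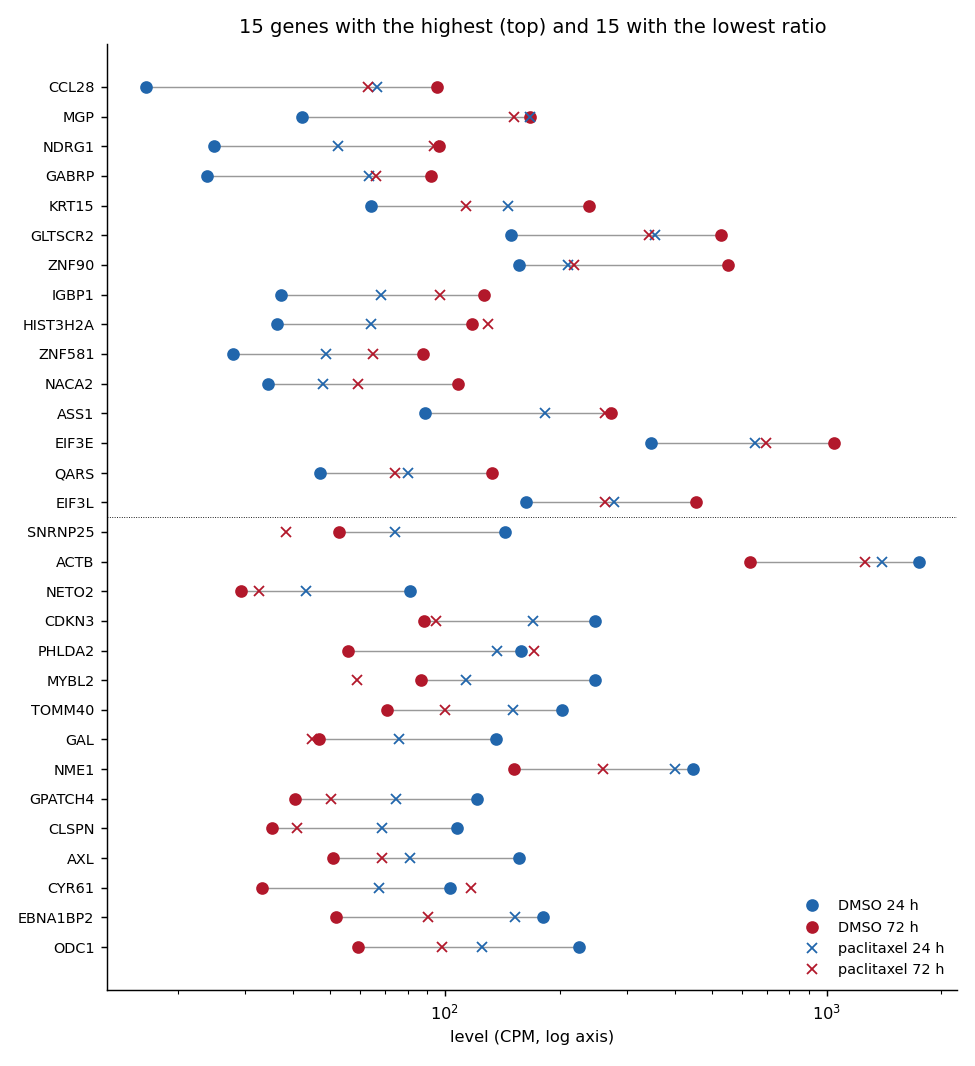
CPM on a log axis for the 15 genes of highest and the 15 of lowest relative ratio among tested genes without ribosomal protein and MT- genes; circles are DMSO libraries (blue 24 h, red 72 h, joined by a line) and crosses are paclitaxel libraries. For all 30 genes the paclitaxel 24 h library lies between the 2 DMSO libraries, which is likely for genes picked by a wide DMSO ratio.

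The same genes differed both in how many cells showed them and in how much each such cell held. With each cell thinned to 20000 UMIs (1080 and 766 cells left, 21 and 17 shallower cells out), CCL28 had a UMI in 22.6% of cells at 24 h (exact interval 20.1 to 25.2%) and in 71.4% at 72 h (68.1 to 74.6%). KRT15 was found in 45.6% and 85.9% of cells, and its detecting cells held a mean of 3.06 and 6.08 UMIs. Unthinned, the shares were 42.5% and 87.7% for CCL28 and 72.9% and 95.3% for KRT15. MGP was found in 33.6% and 66.8% of thinned cells and NDRG1 in 34.4% and 67.9%. All 15 highest genes had a larger share of detecting cells and more UMIs per detecting cell at 72 h, and all 15 lowest genes had less of both. The libraries hold a single line, so no cell type that should lack these genes gave a background share.

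Luminal and differentiation genes were mostly on the higher side. Of 13 tested luminal markers 7 were higher and 0 lower (median 1.00 over 15 members of at least 10 CPM, and 0.76 over the 13). SLPI, a secreted protease inhibitor, was at 59.99 CPM at 24 h and 147 CPM at 72 h (1.71), the mucin MUC1 at 46.0 and 101 CPM (1.54), KRT19 at 322 and 614 CPM (1.34) and the epithelial transcription factor ELF3 at 138 and 243 CPM (1.22). Other luminal genes moved little: KRT8 was at 324 and 273 CPM (0.16) and EPCAM at 250 and 167 CPM (-0.17), both lower on the plain scale. Of 5 tested squamous differentiation genes 3 were higher, among them S100P, a calcium-binding protein, at 47.6 and 95.6 CPM (1.42) and CALML5, a calmodulin-like protein of keratinocytes, at 76.6 and 136 CPM (1.24). Of 14 tested junction genes 5 were higher and 0 lower, with the tight junction gene CLDN1 at 34.2 and 84.1 CPM (1.71). The median of that list was 0.28, which lies below 0 on the plain scale.

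Over all cells, basal genes did not move as a group. Of 9 tested basal markers 1, KRT15, was higher and 0 were lower, with KRT14 at 391 and 257 CPM (-0.20), KRT17 at 696 and 397 CPM (-0.40) and KRT5 at 131 and 70.8 CPM (-0.47). The list's median of 0.20 is also below 0 on the plain scale. A set of 6 basal markers (KRT5, KRT14, KRT17, KRT6A, KRT6B and EGFR) summed to 1605 CPM at 24 h and 1035 CPM at 72 h. Epithelial keratins were thus uneven, with KRT15 and KRT19 on one side and KRT5 and KRT17 on the other.

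Contractile and cytoskeletal genes were lower at 72 h. Of 21 tested genes of the actin cytoskeleton and of serum response factor, 0 were higher and 10 were lower (median -0.46), and their sum was 11899 CPM at 24 h and 6709 CPM at 72 h. ACTB, beta-actin (chr7:5527147-5563784), was at 1744 and 631 CPM (-1.06), PFN1, profilin, at 2392 and 1067 CPM (-0.75), the myosin light chain MYL9 at 202 and 85.2 CPM (-0.83) and the crosslinker FLNA at 304 and 132 CPM (-0.79). ACTG1, the other cytoplasmic actin, was at 1577 and 1709 CPM (0.53), so the 2 actins differed. On the plain scale, the share of UMIs from this list was below the 10th percentile of the 24 h cells in 88.8% of the 72 h cells, beside the 79.1% given above for oxidative phosphorylation genes. Among 5 tested tubulin genes 2 were lower, TUBA1B at 726 and 280 CPM (-0.96) and TUBB4B at 210 and 77.5 CPM (-1.03). TUBB itself was at 746 and 519 CPM (-0.11), and the summed tubulin level was 2094 and 1133 CPM.

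Growth factor and matrix-signalling genes gave a mixed picture. CYR61, a secreted matricellular protein induced by serum, SRF and YAP (chr1:85580761-85583962), was at 103 CPM at 24 h and 33.2 CPM at 72 h (-1.23), and the receptor kinase AXL (chr19:41219203-41261766) at 157 and 50.9 CPM (-1.21). CTGF, the close relative of CYR61, was at 30.2 and 59.3 CPM (1.38) with a mean too low to be counted. Of 9 tested genes often used as YAP or TAZ targets, 0 were higher and 2 were lower. The median over 21 members of at least 10 CPM was -0.05, against 0.13 over all genes of that level. Of 9 tested immediate early genes 6 were higher and 1, CYR61, was lower (median 0.64), with JUNB at 38.1 and 70.1 CPM (1.29), ZFP36L1 at 99.8 and 179 CPM (1.25) and IER2 at 52.4 and 73.1 CPM (0.89). Of 7 tested NOTCH and WNT genes 4 were higher (median 0.42): the receptor NOTCH3 at 196 and 322 CPM (1.13), its target HES1 at 180 and 270 CPM (0.99), HES4 at 124 and 166 CPM (0.84) and the secreted WNT antagonist SFRP1 at 106 and 166 CPM (1.06). MMP7, a matrix protease of epithelial cells, was at 122 and 233 CPM (1.35).

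Genes of cell division were lower, and fewer cells scored as dividing. Of 25 tested G2/M genes 0 were higher and 10 lower (median -0.42), with the sum at 5669 CPM at 24 h and 2996 CPM at 72 h. Of 11 tested S phase genes 0 were higher and 2 lower (median -0.49), with the sum at 2195 and 1217 CPM. The proliferation marker MKI67 was at 161 and 69.6 CPM (-0.80), MYBL2, a transcription factor of the cell cycle (chr20:43667019-43716496), at 247 and 86.8 CPM (-1.10), the checkpoint mediator CLSPN at 108 and 35.4 CPM (-1.19), the phosphatase CDKN3 at 248 and 88.6 CPM (-1.07) and the mitotic kinase AURKA at 84.8 and 33.2 CPM (-0.94). TOP2A was at 180 and 110 CPM (-0.30). HIST1H4C, a replication-dependent histone, was at 1093 and 470 CPM (-0.81).

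In cells thinned to 20000 UMIs, 17.7% of cells at 24 h (exact interval 15.5 to 20.1%) and 57.2% at 72 h (53.6 to 60.7%) were called G1, a class that holds all cells with low scores for both phase lists. S-called cells were 19.8% and 10.6% and G2/M-called cells 62.5% and 32.2%. A UMI of neither MKI67 nor TOP2A was found in 8.70% of thinned cells at 24 h (7.09 to 10.5%) and in 40.7% at 72 h (37.2 to 44.3%). Without thinning these shares were 4.54% and 26.8%. The median thinned cell held 44 and 17 UMIs of the S phase list and 95 and 32 of the G2/M list. Phase calls rest on scores set against all 4 libraries and cut a continuous range.

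The ribosomal shift was present in each phase class. The median ribosomal protein share was 32.4% at 24 h and 41.3% at 72 h in G1-called cells, 26.3% and 39.3% in S-called cells and 26.0% and 39.1% in G2/M-called cells. For comparisons within a phase class, the class's own median log2 ratio was subtracted (-0.29 in G1-, -0.38 in S- and -0.37 in G2/M-called cells). On this scale the ribosomal protein list had medians of 0.72, 1.05 and 1.05 in G1-, S- and G2/M-called cells. Translation factors stood at 0.94, 0.96 and 0.89, and interferon-stimulated genes at 0.95, 0.97 and 1.03. Actin cytoskeleton genes stood at -0.57, -0.49 and -0.47, the proteasome at -0.35, -0.46 and -0.46. Luminal markers stood at 0.46, 0.82 and 1.01, squamous genes at 0.49, 1.14 and 0.70 and junction genes at 0.07, 0.19 and 0.34. These 3 lists had smaller values in G1-called cells than over all cells, and so did others. Ribosomal proteins were at 0.72 there against 1.08 over all cells. The snoRNA host genes were at 0.75, 0.49 and 0.59 in the 3 classes against 1.10. In cells with neither MKI67 nor TOP2A, a comparison added after seeing the data, the luminal, squamous and junction lists stood at 0.31, 0.16 and -0.03. In these cells the basal list stood at -0.40, and KRT5, KRT14 and KRT17 at -0.80, -0.97 and -1.23. In G1-, S- and G2/M-called cells the basal list was at -0.06, 0.13 and 0.19. KRT5, KRT14 and KRT17 were at -0.94, -0.72 and -0.73 in G1-called cells. Among genes counted as higher, S100P was at 0.40 in G1-called cells, MMP7 at 0.57, WIPI1 at 0.60 and CFLAR at 0.60. MGP was at 2.33 there and JUNB at 1.52. The phase lists, which define the classes, were at 0.05 (S list in S-called cells) and 0.13 (G2/M list in G2/M-called cells). Among genes counted as higher and tested within a class, 279 of 391 were counted as higher in G1-called cells, 300 of 378 in S-called cells and 313 of 380 in G2/M-called cells. For genes counted as lower these numbers were 159 of 191, 133 of 220 and 163 of 231. ODC1 was at -1.38, -1.36 and -1.48 in the 3 classes, while KRT15 was at 0.97, 2.49 and 2.27 and TUBA1B at -1.82, -1.08 and -0.31.

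**Figure D4:**
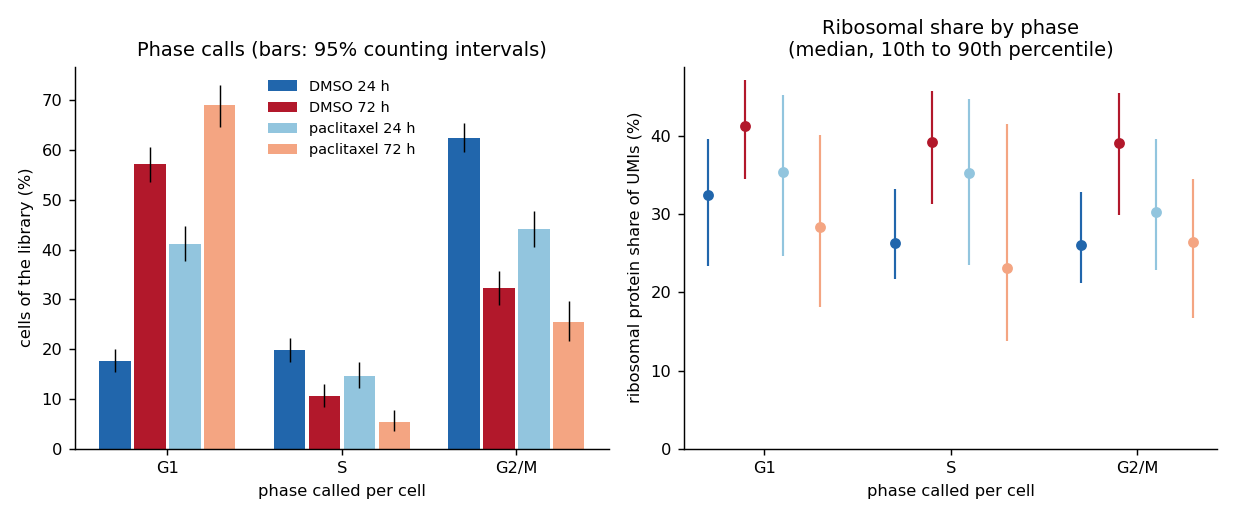
Left, share of cells called G1, S or G2/M in each library (bars, percent; error bars are exact 95% counting intervals); right, ribosomal protein share of UMIs by phase class (points, medians; lines, 10th to 90th percentile). G1-called cells are 17.7% in DMSO 24 h and 57.2% in DMSO 72 h, and the DMSO 72 h median lies above the DMSO 24 h median in all 3 classes.

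Protein folding and degradation genes were lower. Of 13 tested chaperones and folding factors of the endoplasmic reticulum 0 were higher and 7 lower. The median was -0.59 over these 13 and -0.31 over 19 members of at least 10 CPM. CALR, calreticulin, was at 350 CPM at 24 h and 144 CPM at 72 h (-0.87) and SDF2L1 at 249 and 98.6 CPM (-0.93). MANF was at 84.5 and 33.8 CPM (-0.91) and HSPA5 (BiP) at 108 and 53.7 CPM (-0.59). Of 23 tested proteasome subunits 1, PSMB4, was higher and 8 were lower (median -0.42). PSMA7 was at 1049 and 434 CPM (-0.86), PSMB3 at 76.4 and 30.8 CPM (-0.90) and PSMD2 at 113 and 47.9 CPM (-0.83), and the sum over the list was 4262 and 2500 CPM. Of 12 tested cytosolic heat shock genes 4 were lower, among them HSP90AA1 at 812.5 and 312 CPM (-0.97), and of 8 CCT chaperonin genes 2 were lower, CCT5 (-0.59) and TCP1 (-0.65). Lysosome and autophagy genes lay on the other side, with 4 of 10 tested higher and 0 lower, among them WIPI1, which acts in autophagosome formation, at 35.1 and 70.8 CPM (1.42), the cholesterol carrier NPC2 at 163 and 260 CPM (1.09) and GRN, progranulin, at 120 and 177 CPM (0.97). The median of that list, 0.26, is below 0 on the plain scale.

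Metabolic lists differed in direction. Of 9 tested genes of cholesterol synthesis and uptake 3 were higher and 0 lower (median 0.45), with HMGCS1 at 80.1 and 132 CPM (1.13), LSS at 50.4 and 67.1 CPM (0.82) and FDPS at 223 and 266 CPM (0.67). Both tested fatty acid synthesis genes were higher: SCD, the stearoyl-CoA desaturase, at 83.9 and 210 CPM (1.73) and FASN at 93.1 and 107 CPM (0.61). TKT, transketolase of the pentose phosphate pathway, was at 182 and 389 CPM (1.504). Of 12 tested glycolysis genes 1 was higher, LDHB at 171 and 271 CPM (1.08), while ENO1 (565 and 288 CPM, -0.56) and PKM (754 and 390 CPM, -0.54) were below 0 without passing the 1.5-fold line. Of 69 tested nuclear genes of oxidative phosphorylation 7 were higher and 10 lower (median -0.10), and of 12 tested mitochondrially encoded mRNAs 0 passed in either direction (median 0.18, below 0 on the plain scale). Of 2 tested hypoxia genes 1, NDRG1, was higher, while BNIP3 was at 101 and 87.3 CPM (0.20). The hypoxia list's median was 0.70 over 11 members of at least 10 CPM, 10 of them above 0. Of 2 tested metallothioneins, which bind zinc and copper, 1 was lower, MT2A at 3100 and 1326 CPM (-0.81). MT1X had a ratio of -0.06.

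Interferon-stimulated genes were also higher, and those of antigen presentation were divided. Of 5 tested interferon-stimulated genes 4 were higher and 0 lower (median 1.01 over 21 members of at least 10 CPM, 20 of them above 0). IFI6 was at 37.1 CPM at 24 h and 73.3 CPM at 72 h (1.39), IFITM3 at 278 and 463 CPM (1.15), ISG15 at 192 and 296 CPM (1.04) and PLSCR1 at 71.1 and 107 CPM (1.00). Of 6 tested genes of MHC class I presentation 3 were higher and 1, CALR, was lower. The median over the list's 11 members of at least 10 CPM was 0.51, and the whole list summed to 1575 CPM at 24 h and 1542 CPM at 72 h. HLA-E was at 56.5 and 105 CPM (1.30), the peptide-loading protein TAPBP at 83.9 and 124 CPM (0.98) and B2M at 280 and 334 CPM (0.67). In 46.4% of the 72 h cells the interferon list's share lay above the 90th percentile of the 24 h cells, against 15.2% for the antigen presentation list, where 13.0% lay below the 10th. In paclitaxel, IFI6 stood higher still, at 199 and 736 CPM at 24 h and 72 h. The long nuclear RNAs NEAT1 (248 and 455 CPM, 1.29) and MALAT1 (5117 and 6415 CPM, 0.74) were also higher in DMSO at 72 h.

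Death, arrest and stress lists had few tested members, and their calls went in both directions. Over all tested genes 16.2% were higher and 9.35% lower, so counts this small do not set a list apart. Among 6 tested apoptosis-promoting genes 0 were higher and 1 was lower, CYCS, cytochrome c, at 225 and 92.04 CPM (-0.88). Among 6 tested apoptosis-opposing genes 2 were higher, CFLAR, which blocks caspase-8 activation, at 44.8 and 67.0 CPM (0.99) and MCL1 at 184 and 236 CPM (0.77). Of 3 tested p53 targets 1 was higher, PERP, a desmosome protein, at 227 and 288 CPM (0.76), while MDM2 was at 101 and 96.9 CPM (0.35), and CDKN1A, which averaged under 50 CPM, at 54.4 and 42.9 CPM (0.07). Of 5 tested quiescence and growth-arrest genes 0 passed in either direction (median 0.55 over 17 members), with BTG1 at 131 and 144 CPM (0.55) and CDKN2C at 112 and 59.7 CPM (-0.50). Of 6 tested genes of the integrated stress response 2 were higher and 1 lower, with CEBPB at 89.5 and 120 CPM (0.84), the amino acid transporter SLC7A5 at 78.3 and 29.3 CPM (-1.01) and ATF4 at 449 and 420 CPM (0.31).

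**Figure D5:**
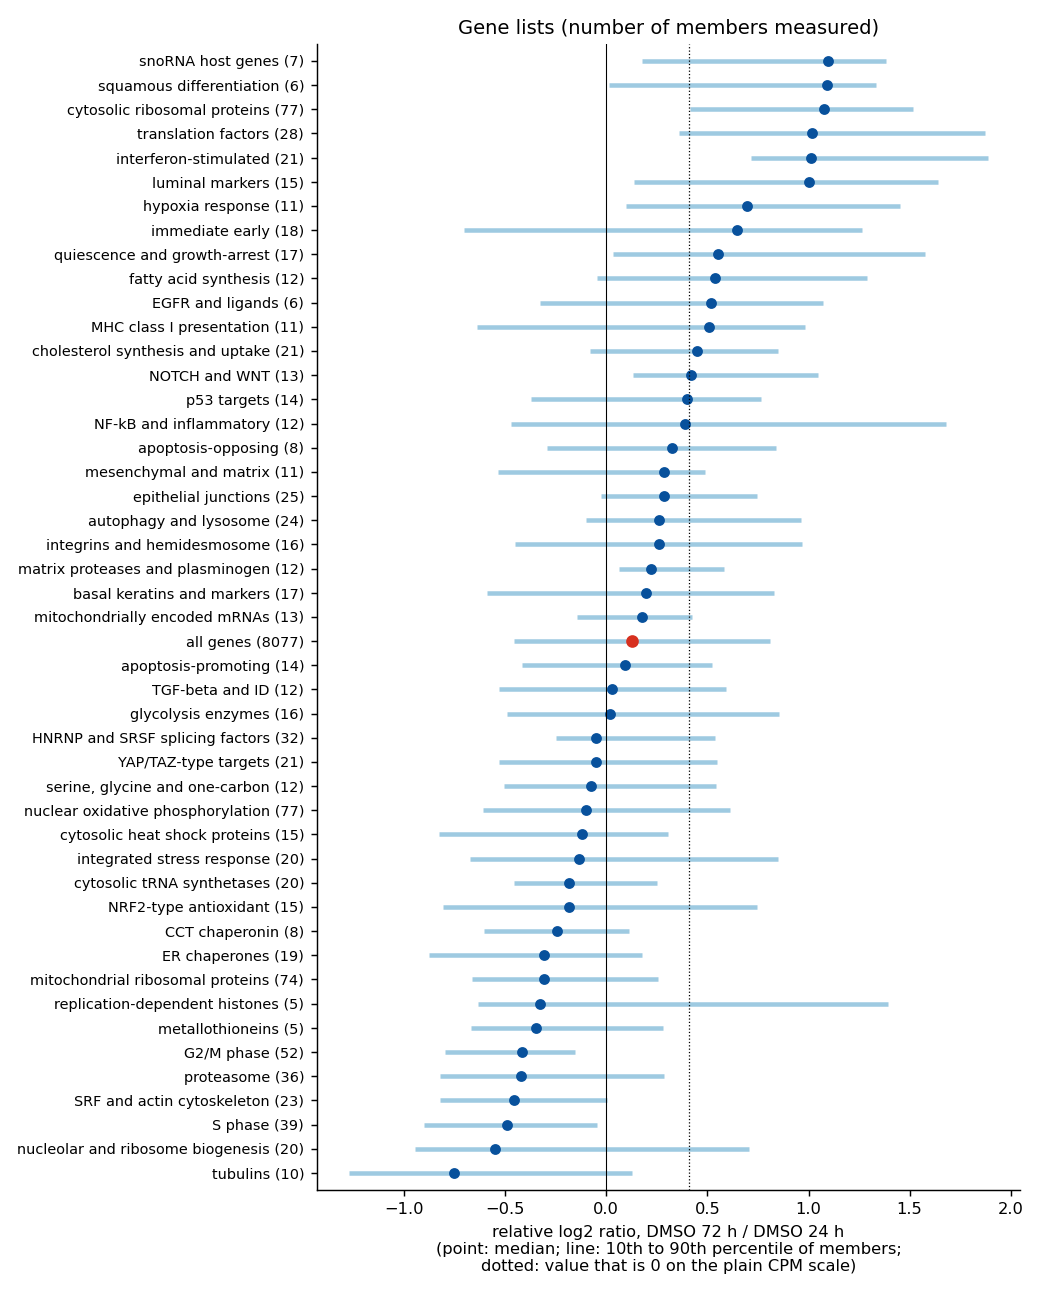
Relative log2 ratio of DMSO 72 h over DMSO 24 h for each gene list with at least 5 measured members (points, medians; lines, 10th to 90th percentile of members; number of members in parentheses), with all 8077 genes in red. The snoRNA host, squamous, ribosomal protein, translation factor, interferon and luminal lists have medians of at least 1.00, and tubulins have the lowest at -0.75; lists left of the dotted line are below 0 on the plain CPM scale.

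The ribosomal protein share already varied among the cells of the 24 h library. The 276 cells of the lowest 25% by this share had at most 23.8% ribosomal protein UMIs and the 276 of the highest 25% at least 31.0%, with 166 and 107 of the 1101 cells within 1 percentage point of these limits. These low and high cells had close medians of total UMIs (57004 and 57774) and of MT- share (8.18% and 7.72%). They were not matched for cell cycle phase. In DMSO at 24 h the median ribosomal protein share was 32.4% in G1-called, 26.3% in S-called and 26.0% in G2/M-called cells. How far phase enters the values below was not tested. The median log2 ratio of high over low cells was -0.35, and relative values again have it subtracted. KRT15 was at 34.9 CPM in the low and 120 CPM in the high cells (relative log2 ratio 2.13), GLTSCR2 at 97.5 and 238 CPM (1.64), and EIF3E at 210 and 547 CPM (1.73). MGP was at 49.8 and 41.6 CPM (0.09), SLPI at 68.4 and 54.4 CPM (0.02), TXNIP at 17.0 and 13.9 CPM (0.06) and ODC1 at 266 and 171 CPM (-0.29). The first 3 of these genes were thus higher in those cells of the younger culture with a high ribosomal protein mRNA share. MGP, SLPI and TXNIP stood near the median gene. Since these cells are part of the 24 h library in the comparison over time, the 2 sets of values are not independent, and no measure of their likeness is given.

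The same interval of time was measured in 1 nM paclitaxel, in 2 libraries other than the DMSO ones, with 4 barcode sequences shared between the paclitaxel 24 h and DMSO 24 h tables and 0 in the other pairs of a paclitaxel and a DMSO table. There 205 of 2696 tested genes were higher at 72 h (7.6%) and 110 were lower (4.08%), with a median log2 ratio of 0.06 before centring. Of the 395 genes higher over time in DMSO and tested in both, 64 were also higher in paclitaxel (16.2% of them, and 56.1% of the genes higher in paclitaxel among those tested in both), and 3 were lower. Of the 214 genes lower in DMSO, 54 were lower in paclitaxel as well (25.2%, and 49.5% of the genes lower in paclitaxel) and 3 were higher. Among genes tested in both with neither call in DMSO, 47 were higher in paclitaxel, 52 were lower and 1656 had neither call. Beside the 56.1% and 49.5%, 16.2% and 9.35% of all 2470 genes tested in DMSO were higher and lower. Ribosomal protein genes were not higher at 72 h in paclitaxel: their sum was 327550 CPM at 24 h and 284748 CPM at 72 h, and 0 of 77 were counted in either direction (median -0.26). The proteasome had a median of 0.03, tubulins 0.19 and the actin cytoskeleton list -0.10, where DMSO gave -0.42, -0.75 and -0.46. The S phase and G2/M lists were lower in both, at -0.51 and -0.65 in paclitaxel. The differences between the DMSO and the paclitaxel changes were not tested, since each rests on 4 single libraries.

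Named genes showed both kinds of pattern. NDRG1 was at 52.7 and 93.6 CPM at 24 h and 72 h in paclitaxel, TXNIP at 57.6 and 160 CPM, and MYBL2 at 114 and 59.0 CPM, each with the direction seen in DMSO. CCL28 was at 66.4 and 63.0 CPM, MGP at 167 and 152 CPM, KRT15 at 146 and 114 CPM, EIF3E at 648 and 694 CPM, and GABRP at 63.6 and 66.3 CPM in paclitaxel, none of which passed 1.5-fold there. For all 15 of the highest and all 15 of the lowest genes, the paclitaxel 24 h library had a level between those of the DMSO libraries at 24 h and 72 h. The paclitaxel 72 h library lay between them for 14 of the highest and 10 of the lowest genes. These genes were picked for the widest ratios between the DMSO libraries, which makes a level in between likely for any other library. The share over all tested genes was not counted, so no intermediate state can be read from these counts.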

How the data were processed

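The authors deposited 1 table of raw UMI counts per gene symbol and cell barcode for each of 4 HCC1143 libraries (10x Chromium, poly(A) RNA, per the labels' protocols), with no normalization. Per the submitters' processing notes, Cell Ranger 2.0 and GRCh38 were used. The rule for cell selection was not given in the sources used here. A gene was listed where 1% or more of a table's cells held a UMI, so a gene missing from a table is not a measured 0 and was set to 11 (DMSO 24 h) or 7 UMIs (DMSO 72 h), with 3 counts as the floor.

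Barcodes under 20% MT- UMIs were kept. Counts were summed per library, scaled to CPM, and compared as log2 ratios minus the median over genes that averaged 50 CPM or more, with exact (Clopper-Pearson) 95% intervals for 2 Poisson counts; shares carry exact binomial intervals. List medians use members of at least 10 CPM. Members, the 51 lists and the thresholds were chosen with earlier results of these data known. Named genes are the 15 highest and 15 lowest without MT- and ribosomal protein genes, up to 4 per list with the largest ratios, and 30 fixed genes, 206 in all; others named are members of these lists and were picked after their values were seen. Coordinates are from GENCODE on GRCh38, where 202 of the 206 had 1 locus.

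Phases were called with scanpy 1.11.5 on cells thinned to 20000 UMIs. The scripts were tested on simulated data. Python 3.11.15, numpy 2.4.6, pandas 2.3.3, scipy 1.17.1 and, for TMM factors, edgeR 4.0.16 in R 4.3.3 were used. Alternatives covered scaling, the CPM minimum, the fold threshold, cell filters, thinning, doublets (Scrublet), and phase classes.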

Additional observations from a re-analysis of the deposited data

Results flagged for a closer look

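CYR61 differed in opposite directions with time in DMSO and in paclitaxel. Its relative log2 ratio of 72 h over 24 h was -1.23 in DMSO (103 and 33.2 CPM) and 0.74 in paclitaxel (67.2 and 117 CPM). The difference was not tested, since each ratio rests on 1 library a side. Beside it, 5 further genes passed 1.5-fold in opposite directions. RP11-54H7.4 (-0.91 in DMSO, 1.38 in paclitaxel) and UPP1, uridine phosphorylase (-0.73 and 0.85), were lower in DMSO and higher in paclitaxel. LINC01297.1 (0.98 and -1.52), TNS3, a focal adhesion protein (0.71 and -0.93), and RGCC (0.63 and -0.86) were higher in DMSO and lower in paclitaxel.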

How the results depend on the processing

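No paired analysis was possible because each group is 1 library. The number of genes counted as higher and lower (399 and 231) depended on scaling: it was 171 and 876 without median subtraction, 238 and 601 with TMM factors, and 312 and 387 with totals that leave out ribosomal protein and MT- genes. With a minimum of 10 CPM it was 1047 and 799, with 100 CPM 239 and 122, and at 2-fold 168 and 22. TMM and the totals place 0 at relative values of 0.26 and 0.12. Each of these 3 scalings lowers every gene by 1 constant, so lower genes could not lose their call; 171, 238 and 312 of the 399 higher genes kept theirs. Other cell filters, thinning and marked doublets gave between 398 and 410 higher genes. The change in S-called cells was -9.24 percentage points, or -13.4 without thinning and -14.5 with DMSO cells alone, and that in G2/M-called cells was -30.3, or -24.3 and -25.3. In cells with neither MKI67 nor TOP2A, a comparison chosen after seeing the data, 12 of 183 named genes with a value had the other sign. Of these, 3 were counted as higher or lower over all cells: CALML5 (-0.16), NUPR1 (-0.19) and HIST1H4C (0.48). Without thinning, the difference in detecting cells changed sign for TKT (-0.0198 percentage points), NEAT1 (-0.423), SNHG7 (-0.0254), ISG15 (-0.0595), COX7A2L (-0.604), MCL1 (-0.494) and ADAM10 (-1.02). The cause of these changes was not tested. The 15 highest and 15 lowest genes of the report, chosen among those of 50 CPM or more, rest on at least 1190 UMIs in each library. Genes of lower level rest on fewer, such as 444 for BST2 at 24 h and 408 for TAGLN at 72 h. The spread between cultures was not measured.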

Other observations

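Genes of lower level, with a mean under 50 CPM and so outside the counts above, held some of the widest ratios; those given here were picked after their values were seen. BST2 (tetherin), an antiviral membrane protein, was at 6.16 CPM in DMSO at 24 h and 37.9 CPM at 72 h (relative log2 ratio 3.03, counting interval 2.88 to 3.18), and PARP14 at 5.30 and 19.6 CPM (2.30). KRT23, a luminal keratin, was at 19.9 and 66.4 CPM (2.15), the cytokine IL18 at 23.8 and 66.8 CPM (1.90) and the immediate early gene FOS at 8.70 and 25.5 CPM (1.96). The cell cycle inhibitor CCNG2, cyclin G2, was at 10.8 and 25.4 CPM (1.65). KDR was at 1.97 and 10.5 CPM, from 142 and 518 UMIs. On the lower side, TAGLN (transgelin), an actin-binding protein of contractile cells, was at 58.2 and 8.29 CPM (-2.40), LAMA3, a laminin chain of the basement membrane, at 40.6 and 13.6 CPM (-1.16), TUBB2A at 17.1 and 5.00 CPM (-1.36) and the AP-1 member FOSL1 at 65.1 and 18.9 CPM (-1.37).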
